A study of Mus musculus with 8 samples.

Results

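The genes described here are 34 that run DNA replication (S phase) and mitosis. They were taken by gene name: 12 replication genes and 22 mitotic genes, among 27729 gene names on the arrays. The list was drawn up with earlier results of these data known. They were measured in cells from the hearts of E10.5 mouse embryos. All embryos carried the minKGFP bacterial artificial chromosome transgene, in which green fluorescent protein (GFP) reports the minK gene Kcne1, so both groups bear the transgene and differ in how brightly they fluoresced. Hearts were digested with pancreatin and collagenase and the cells were sorted into a GFP-high group, labelled as cardiac conduction system, and a GFP-low group, labelled as chamber myocardium. Each group has 4 biological replicates on 4 arrays, and how many embryos went into a sample is not given in the sources used here.

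In each cell cycle the genome is copied once and then divided between daughter cells. Origins of replication are loaded with the Mcm helicase by Cdc6, Cdc45 joins the helicase when the origin fires, Pcna tethers the polymerases, and ribonucleotide reductase and thymidylate synthase supply the nucleotides. Before mitosis, Foxm1 and related regulators switch on cyclin B, the Polo and Aurora kinases, checkpoint proteins and spindle motors, and the anaphase-promoting complex with Cdc20 and Ube2c then triggers chromosome separation. Cells of the forming conduction system are known to divide more slowly than the chamber muscle around them.

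Levels are given as log2 of the scanner's processed signal minus the 75th percentile of the same array, so that 0 is the 75th percentile. Differences are GFP-high minus GFP-low on that log2 scale, with the standard error (SE) of limma's moderated test and its Benjamini-Hochberg adjusted p over the 12892 genes tested. The 2 Kcne1 probes checked the sort: the probe with the larger gap had a mean of 2.24 ± 0.38 in the GFP-high arrays and of -0.60 ± 0.28 in the GFP-low arrays (SD, n = 4 each), and every GFP-high array lay above every GFP-low array for both probes. Between 36.3% and 50.7% of non-control spots were well above background, with the lowest share on GFP-high replicate 3. All 10 cardiomyocyte markers were measured. Of the markers of other cells, the endothelial receptors Kdr and Flt1 and the leukocyte lysozyme Lyz2 were above background on all 8 arrays, while Tek, another endothelial receptor, and Ptprc, the pan-leukocyte marker, were so on none. Replicates 1 and 2 were hybridised on slide 1 and replicates 3 and 4 on slide 2, GFP-high and GFP-low alike. Over all tested genes the median difference was 0.16, with 8008 genes above 0 and 4884 below.

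The promoters of the members whose arrays separated the groups are shown first, with that of Mcm6 as a replication gene whose arrays did not. Each is the 250 bases before the annotated start site in RefSeq on GRCm38.p6, 5′ to 3′ on the gene's strand. Capitals mark matches on either strand to 3 motifs: the cell cycle homology region (CHR, searched as TTTGAA or TTCGAA), the CCAAT box (CCAAT), and an E2F site (searched as TTTCCCGC, TTTCGCGC, TTTGCCGC or TTTGGCGC). Matches on opposite strands can overlap, as the CCAAT pair in CCAATTGG of Ube2c and the E2F pair of Mcm6 do. The windows are chr4:118437344-118437593 (minus strand) for Cdc20, chr2:164769679-164769928 (plus strand) for Ube2c, chr2:172370571-172370820 (minus strand) for Aurka, chr11:117848987-117849236 (plus strand) for Birc5, chr7:135716380-135716629 (minus strand) for Mki67 and chr1:128359706-128359955 (minus strand) for Mcm6.
Cdc20: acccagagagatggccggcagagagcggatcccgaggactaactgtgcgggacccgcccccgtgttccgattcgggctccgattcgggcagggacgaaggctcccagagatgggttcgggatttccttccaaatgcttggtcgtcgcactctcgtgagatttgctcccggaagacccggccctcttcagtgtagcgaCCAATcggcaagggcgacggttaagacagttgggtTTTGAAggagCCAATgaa
Ube2c: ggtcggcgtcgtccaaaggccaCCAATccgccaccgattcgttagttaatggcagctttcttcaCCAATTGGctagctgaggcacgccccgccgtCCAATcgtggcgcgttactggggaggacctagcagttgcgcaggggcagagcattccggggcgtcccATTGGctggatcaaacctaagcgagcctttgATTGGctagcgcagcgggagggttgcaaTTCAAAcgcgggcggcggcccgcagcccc
Aurka: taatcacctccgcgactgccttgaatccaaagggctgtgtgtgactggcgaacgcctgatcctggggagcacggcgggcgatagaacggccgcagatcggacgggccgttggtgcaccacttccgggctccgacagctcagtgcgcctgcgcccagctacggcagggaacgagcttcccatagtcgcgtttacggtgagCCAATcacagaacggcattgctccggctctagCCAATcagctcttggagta
Birc5: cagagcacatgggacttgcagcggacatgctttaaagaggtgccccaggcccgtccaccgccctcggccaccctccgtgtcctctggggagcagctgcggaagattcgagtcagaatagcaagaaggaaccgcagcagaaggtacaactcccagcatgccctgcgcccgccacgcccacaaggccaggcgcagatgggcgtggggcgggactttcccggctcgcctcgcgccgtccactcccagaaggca
Mki67: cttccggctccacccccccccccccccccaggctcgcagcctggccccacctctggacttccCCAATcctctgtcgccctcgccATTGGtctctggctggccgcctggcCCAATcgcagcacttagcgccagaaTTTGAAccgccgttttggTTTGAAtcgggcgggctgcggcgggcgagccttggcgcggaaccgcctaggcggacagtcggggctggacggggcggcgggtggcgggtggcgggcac
Mcm6: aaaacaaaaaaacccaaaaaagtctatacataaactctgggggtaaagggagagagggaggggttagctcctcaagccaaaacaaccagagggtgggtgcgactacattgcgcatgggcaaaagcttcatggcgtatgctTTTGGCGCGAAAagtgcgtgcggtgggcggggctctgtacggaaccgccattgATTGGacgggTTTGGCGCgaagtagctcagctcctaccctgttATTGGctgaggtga

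A promoter entry was found for 28 of the 34 members; Mcm4, Foxm1, Ccna2, Aurkb, Kif20a and Tpx2 had none. A CCAAT box stood in 14 of 17 mitotic promoters (82.4%) and 9 of 11 replication promoters (81.8%), against 34.5% of the promoters of 27025 genes. The CHR word stood in 7 of 17 mitotic promoters (41.2%) and 3 of 11 replication promoters (27.3%), against 17.4% of all. The E2F words were found in 4 of 11 replication promoters (36.4%), namely Mcm5, Mcm6, Mcm7 and Cdc6, in 0 of 17 mitotic promoters and in 1.91% of all. At least 2 CCAAT boxes stood in 10 of 17 mitotic (58.8%) and 5 of 11 replication promoters (45.5%), against 2849 of 27025 genes. The CHR word was found on both sides: of the 7 mitotic genes with a CHR word, 4 had a difference above 0 and 3 below. Mki67, with CHR words 116 and 98 bases before the start, and Top2a, with 4, lay on the lower side, while Cdc20 and Ube2c, with a CHR word 18 and 29 bases before the start, lay on the higher side. Birc5 had no match in this window, which says only that these letters are not there.

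**Figure D1:**
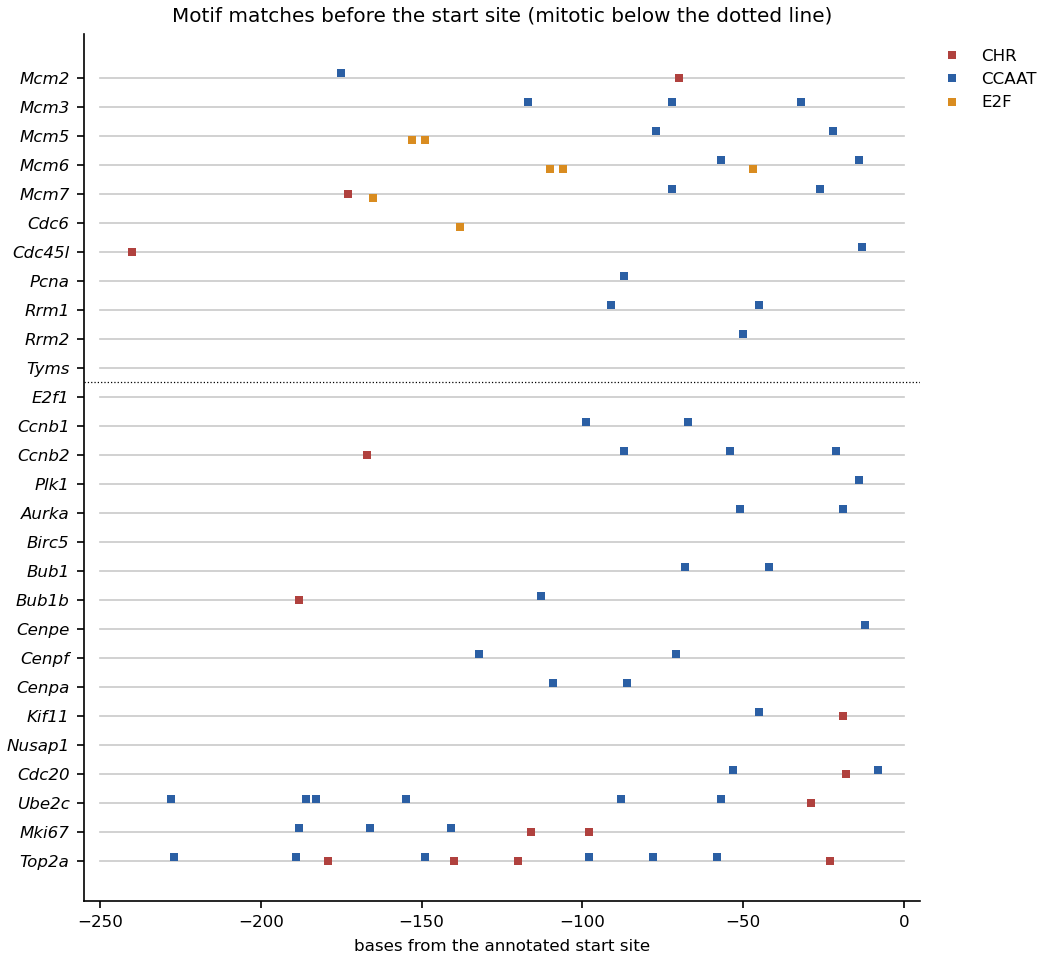
Positions of motif matches in the 250 bases before the start site of 28 members, in bases from the start; red marks CHR, blue CCAAT and orange E2F words, drawn at slightly different heights. E2F matches appear in replication genes, and CCAAT boxes in 14 of 17 mitotic and 9 of 11 replication promoters.

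No replication gene passed the test. All 12 were well above background on all 8 arrays, and their differences were evenly split, 6 above 0 and 6 below, from -0.95 for Mcm4 to 0.57 for Cdc45l. Their median was -0.0039, against 0.16 for all tested genes, and 4 of the 12 lay above that median. Over all tested genes, 9 were called higher (0.0698%) and 9 lower (0.0698%) at an adjusted p under 0.05. At an unadjusted p under 0.05 the count was 0 of 12 in either direction, where 7.94% of all tested genes were higher and 6.37% lower. The 95% interval of a replication gene's difference reached 0.63 to each side at the median of the 12, with 4 arrays a group. That interval is not adjusted over the tested genes, and the larger difference of Mcm4 was not called either.

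The 6 subunits of the Mcm2-7 helicase ring did not share a direction. Mcm4 had the lowest value: the GFP-high arrays were at 2.95, 4.60, 5.06 and 4.17 (replicates 1 to 4) and the GFP-low arrays at 5.17, 4.89, 5.73 and 4.78. GFP-high replicate 1 lay well under all the others, while replicate 3 lay within the GFP-low range. The difference was -0.95 ± 0.46 (SE; 95% interval -2.01 to 0.11), with a limma adjusted p of 0.382. Mcm7 had the highest value of the ring. Its GFP-high arrays were at 6.96, 7.13, 6.63 and 6.41 and its GFP-low arrays at 6.56, 6.63, 5.44 and 6.46, so the groups overlapped and GFP-low replicate 3 stood apart. The difference was 0.51 ± 0.33 (SE), with a limma adjusted p of 0.501. Without GFP-low replicate 3 it was 0.23.

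Mcm2, Mcm5 and Mcm6 differed by -0.26, -0.06 and 0.04, all within their array spread. Mcm3 gave 0.12 with its brighter probe and -0.45 with its dimmer probe, both measured on all 8 arrays, so its direction was not settled. Within slide 1, 5 of the 6 subunits were above 0, and within slide 2, 5 of the 6 were below: the median over the ring was 0.25 on slide 1 and -0.19 on slide 2.

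For origin loading, the clamp and nucleotide supply, the intervals of all 6 differences held 0. Cdc6, which loads the helicase, had a mean of 0.46 ± 0.29 against 0.23 ± 0.35 (SD, n = 4 each), GFP-high first. Cdc45l, the older name of Cdc45, the helicase partner, was at 1.78 ± 0.70 against 1.20 ± 0.73 (SD, n = 4 each), a difference of 0.57 with a 95% interval from -0.49 to 1.64.

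Pcna, the sliding clamp, was at 3.88, 4.34, 5.03 and 5.28 in GFP-high and 5.10, 4.90, 5.01 and 5.16 in GFP-low. Its low values in GFP-high came from the arrays of slide 1: the difference was -0.89 on slide 1 and 0.07 on slide 2, and -0.41 ± 0.34 (SE) over both. Rrm1 and Rrm2, the large and small subunits of ribonucleotide reductase, differed by -0.06 and 0.29. Tyms, thymidylate synthase, differed by -0.05 with its brighter probe and by 0.43 with another, measured on all 8 arrays as well. None of the 3 nucleotide-supply genes separated the groups.

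**Figure D2:**
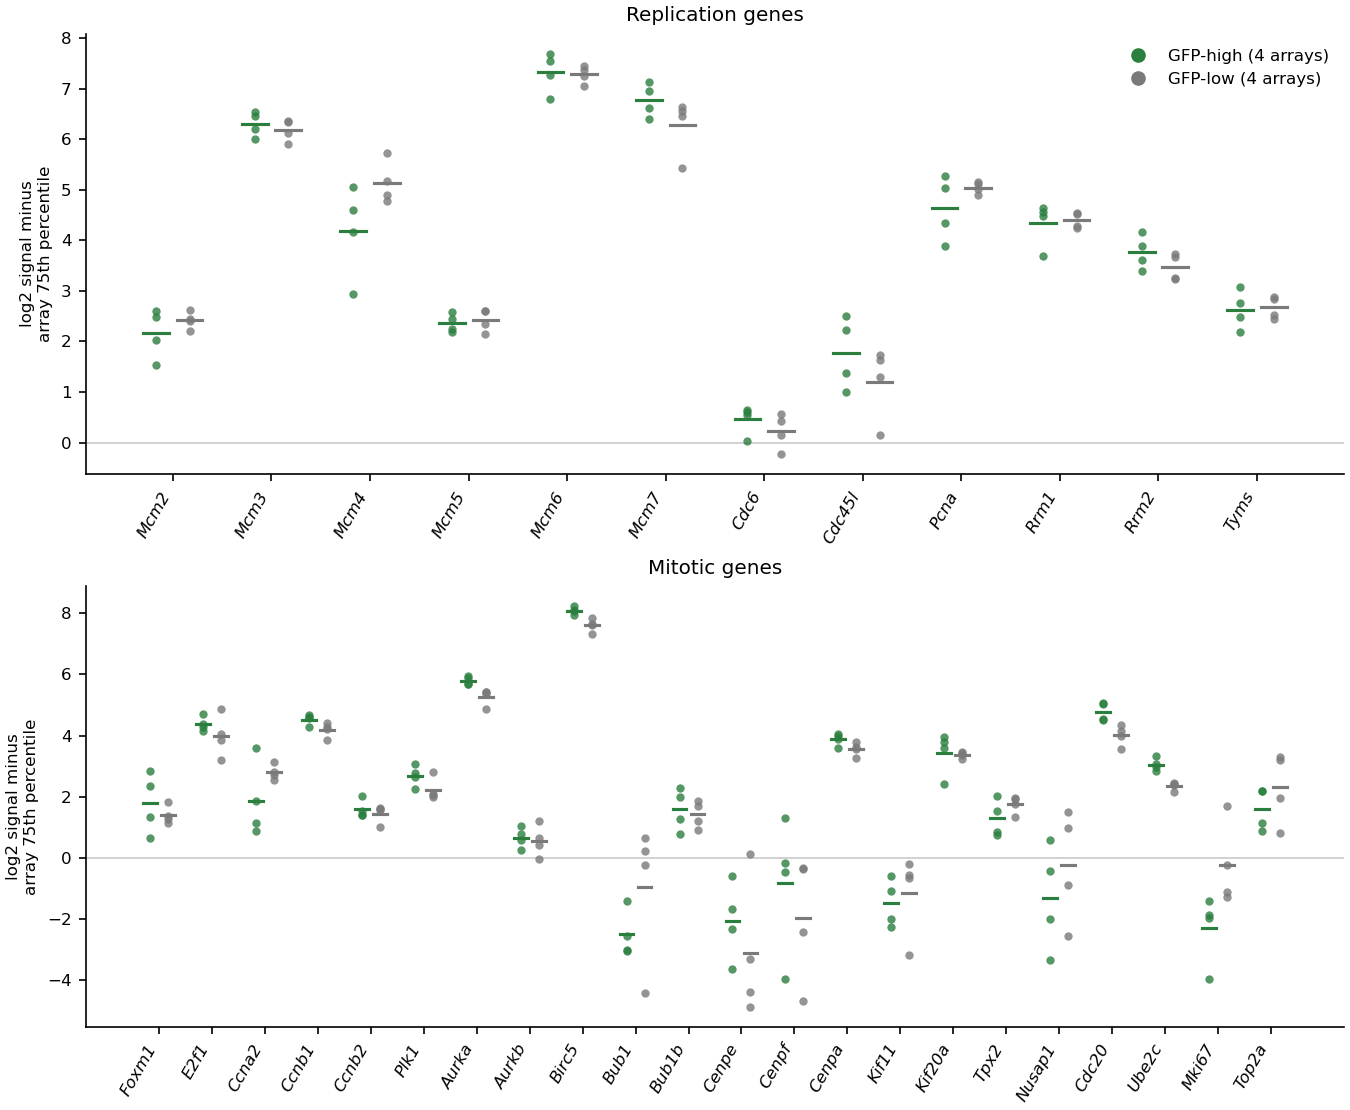
Level of each of the 34 members on each array, as log2 signal minus the array's 75th percentile; points are arrays (green GFP-high, grey GFP-low, 4 each), bars are group means, and levels of different genes come from different probes and are not comparable. The green and grey points do not overlap for Cdc20, Ube2c, Aurka, Birc5 and Mki67.

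Among the mitotic genes, too, none passed the test, but a few separated the groups in all arrays. Of 22 mitotic genes 21 were tested; Cenpe, a kinetochore motor, was detected on 2 arrays of GFP-high and 1 of GFP-low and was left out. The median difference was 0.17, next to 0.16 for all tested genes, with 14 above 0 and 7 below, and 11 of the 21 above the median of all tested genes. In 4 of the 21 genes every GFP-high array lay above every GFP-low array, which 5.86% of all tested genes did. In 1 gene, Mki67, every GFP-high array lay below every GFP-low array, which 3.08% of all tested genes did. At an unadjusted p under 0.05, 2 were higher (Ube2c and Cdc20) and 1 lower (Mki67), where 7.94% of all tested genes were higher and 6.37% lower. In whole-population RNA, fewer cells in mitosis and less of a transcript per cell cannot be told apart.

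The activators of the anaphase-promoting complex gave the smallest p-values on the higher side. Cdc20, the activator that presents mitotic cyclins and securin for destruction, was at 5.05, 5.06, 4.51 and 4.53 in GFP-high and 4.35, 4.14, 3.56 and 3.98 in GFP-low. All 4 GFP-high arrays lay above all 4 GFP-low arrays. The difference was 0.78 ± 0.27 (SE; 95% interval 0.16 to 1.41), a 1.72-fold higher signal, with a limma adjusted p of 0.276. Ube2c, the ubiquitin-conjugating enzyme of the same complex, was at 3.06, 2.97, 2.86 and 3.32 in GFP-high and 2.46, 2.39, 2.15 and 2.41 in GFP-low. The groups again did not overlap, with SDs of 0.20 in GFP-high and 0.14 in GFP-low and the nearest arrays at 2.86 and 2.46. The difference was 0.70 ± 0.22 (SE; 95% interval 0.20 to 1.20), 1.62-fold, with a limma adjusted p of 0.247. Both differences were of like size on the slides, 0.81 and 0.76 for Cdc20 and 0.59 and 0.81 for Ube2c. Each gene was measured by 1 probe, at chr4:118105536-118105595 and chr2:164598016-164598075 of mm9.

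The Polo and Aurora kinases and Birc5 had differences above 0, that of Aurkb (0.10) lying under the 0.16 median of all tested genes. Aurka, the centrosomal Aurora kinase, was at 5.69, 5.87, 5.94 and 5.68 in GFP-high and 5.43, 5.42, 4.86 and 5.36 in GFP-low. Birc5 (survivin), a subunit of the chromosomal passenger complex, was at 8.07, 8.23, 7.94 and 8.12 in GFP-high and 7.65, 7.31, 7.62 and 7.85 in GFP-low. The groups of both genes did not overlap, by a narrow margin for Birc5, whose closest arrays were at 7.94 and 7.85. The differences were 0.53 ± 0.23 (SE; limma adjusted p of 0.351) for Aurka and 0.48 ± 0.22 (SE; limma adjusted p of 0.362) for Birc5. Under quantile normalisation that of Birc5 was 0.19.

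Plk1, the Polo-like kinase that starts mitosis, differed by 0.46 ± 0.29 (SE), with GFP-low replicate 4 at 2.81 inside the GFP-high range. Aurkb, the kinase partner of Birc5 in the passenger complex, differed by 0.10 ± 0.33 (SE), and was -0.51 on slide 1 and 0.72 on slide 2. Its arrays overlapped throughout, unlike those of Birc5.

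The cyclins were not of like direction. Ccnb1, cyclin B1, gave 0.34, 0.51 and 0.31 with its 3 probes, and Ccnb2, cyclin B2, gave 0.15. Ccna2, cyclin A2, which acts in S phase and early mitosis, was at 1.14, 0.86, 3.60 and 1.87 in GFP-high and 2.70, 2.80, 3.14 and 2.56 in GFP-low. All but GFP-high replicate 3 of the GFP-high arrays lay under the GFP-low arrays. The difference was -0.93 ± 0.56 (SE; 95% interval -2.21 to 0.34), and without GFP-high replicate 3 it was -1.51 with a limma adjusted p of 0.102. The GFP-high arrays spread far more than the GFP-low ones, with an SD of 1.23 against 0.25.

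The regulators Foxm1 and E2f1 differed by 0.39 and 0.39, with array ranges that overlapped. When each array was left out in turn, the difference ran from 0.041 to 0.78 for Foxm1 and from 0.12 to 0.67 for E2f1. Foxm1, the forkhead factor of mitotic genes, differed by 1.13 on slide 1 and by -0.34 on slide 2. E2f1, an activator of replication genes, gave 0.26 with its other probe.

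Checkpoint, kinetochore and spindle genes held 4 of the 7 values below 0. Bub1b, which holds back Cdc20 until chromosomes are attached, differed by 0.17 ± 0.39 (SE). Bub1, the checkpoint kinase, was measured on 3 arrays of each group and differed by -1.56 ± 1.05 (SE), with GFP-low replicate 1 at -4.41 the lowest of all. Cenpa, the centromeric histone, gave 0.31 and 0.67 with its probes, and Cenpf, a kinetochore protein, 1.14 ± 1.29 (SE). The errors of Bub1 and Cenpf exceed 1 on the log2 scale, so no direction can be read from them.

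Among the spindle proteins, Tpx2, the activator of Aurka, differed by -0.46 ± 0.34 (SE), and Nusap1, a microtubule binder, by -1.05 ± 1.08 (SE). Kif20a, a motor of cytokinesis, gave 0.07 and 0.09 with its probes. Kif11, the motor that separates spindle poles, differed by -0.34 ± 0.69 (SE). A second Kif11 probe was not well above background on any GFP-high array and was measured on 3 GFP-low arrays. Its mean signal was at least 2.06-fold lower in GFP-high, taking as floor each array's lowest signal well above background. Its arrays overlapped, with GFP-low replicate 4 at -4.32 under every GFP-high array, and this probe was not tested. The groups' measured means were -3.54 and -1.54. A probe each of Mcm4, Bub1, Cenpe and Top2a, likewise not well above background on any GFP-high array, gave bounds of 0.49, 0.92, 0.34 and 0.50. Those bounds do not set a lower signal in GFP-high.

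Both chromosome proteins had values below 0, and Mki67 had the lowest of all members. Mki67 encodes Ki-67, the coat protein of mitotic chromosomes that is widely used as a proliferation marker. Its brighter probe (chr7:142881591-142881650 of mm9) was at -1.95, -1.42, -3.96 and -1.86 in GFP-high and -1.29, 1.70, -1.13 and -0.22 in GFP-low. Every GFP-high array lay under every GFP-low array, the nearest pair being at -1.42 and -1.29, and GFP-low replicate 2 was far above the rest. Of the GFP-high arrays 3 were well above background, as were all 4 GFP-low arrays. The difference was -2.06 ± 0.77 (SE; 95% interval -3.82 to -0.30), 4.18-fold, with a limma adjusted p of 0.300. With normexp background correction it was -1.002, and without GFP-low replicate 2 it was -1.42. The second probe, at chr7:142886012-142886071, was at -3.46, -1.21, -3.96 and -2.72 in GFP-high and -1.65, 2.59, -1.23 and 0.46 in GFP-low, with 1 array of GFP-high and all 4 of GFP-low above background. It thus entered through GFP-low and adds no independent support; its groups overlapped by GFP-high replicate 2.

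Top2a, the topoisomerase that untangles sister chromatids, was on the same side with less precision. Its brightest probe was at 1.14, 0.87, 2.19 and 2.20 in GFP-high and 0.82, 3.20, 3.29 and 1.97 in GFP-low, a difference of -0.73 ± 0.60 (SE). A dimmer probe was at -2.15, -1.02, -2.16 and -2.75 in GFP-high and -0.93, 0.22, -0.48 and -0.58 in GFP-low, and did not overlap between groups. It differed by -1.58 ± 0.42 (SE; limma adjusted p of 0.214 over all measured probes), with 2 arrays of GFP-high and all 4 of GFP-low above background. Over all members, 7 of the 9 with at least 2 measured probes had probes of the same sign, the others being Mcm3 and Tyms. Among the 7 are Mki67 and Top2a, whose dimmer probes were above background on more GFP-low than GFP-high arrays. The like share over all genes was not computed, and 62.1% of all tested genes were above 0, so the count is a description.

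**Figure D3:**
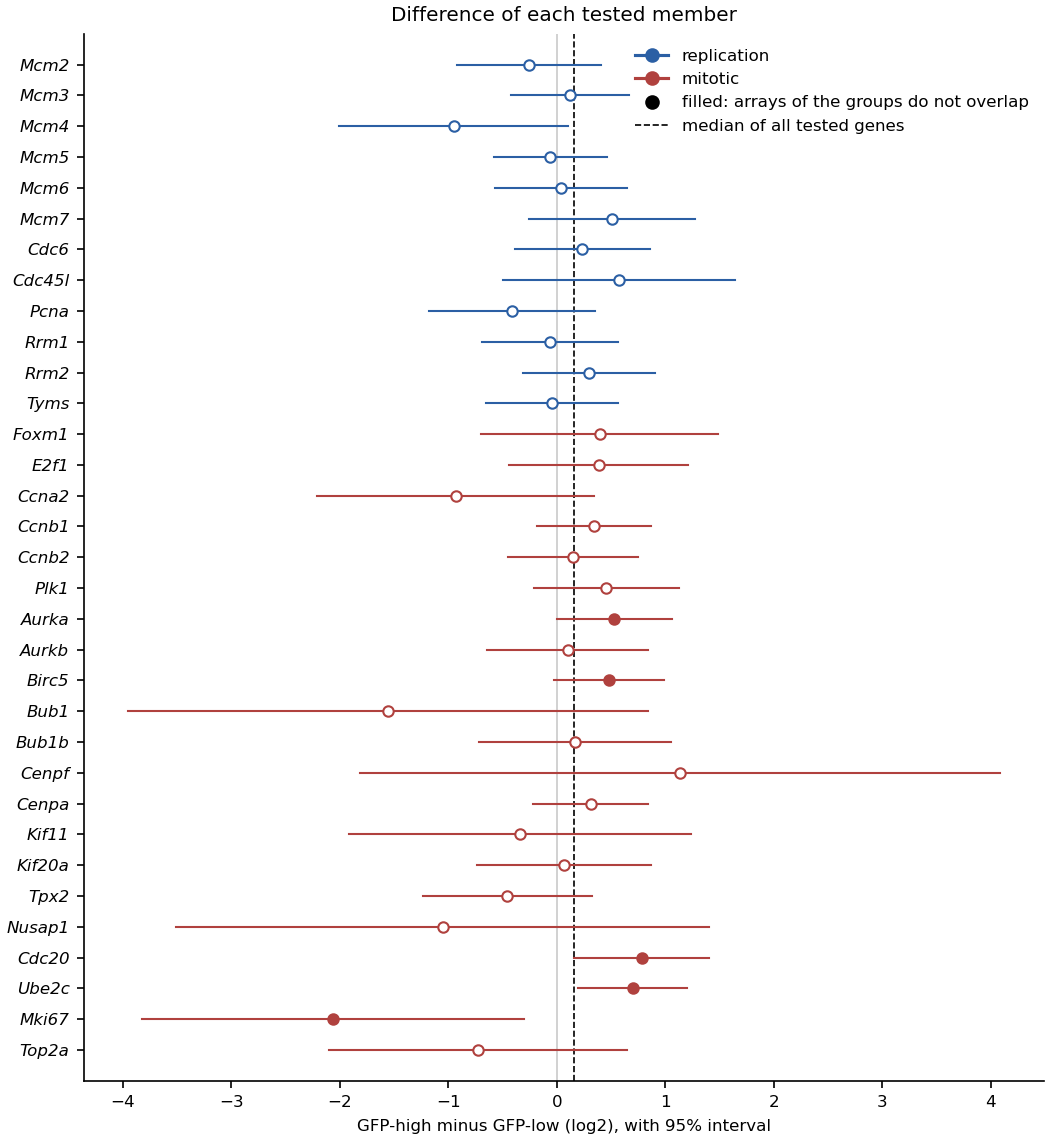
GFP-high minus GFP-low (log2) of the 33 tested members with its 95% interval, blue for replication and red for mitotic genes, by role from top to bottom; filled points have arrays that do not overlap between groups, and the dashed line is the median of all tested genes, 0.16. Cdc20 and Ube2c lie right of 0 and Mki67 left of it with their intervals, and no member passed the adjusted test.

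The signs of the mitotic genes were also counted by the strength of the probe signal, a split at a mean level of 0 made after the values were seen. Of the 16 mitotic members with a mean level of 0 or more, 13 differences were above 0 and the median was 0.33. Of the 7471 brighter tested genes 64.8% were above 0, and 10 of the 16 members lay above the 0.16 median of all tested genes. Of the 5 with a mean level under 0 (Bub1, Cenpf, Kif11, Nusap1 and Mki67), 4 were below 0 and the median was -1.05. Of the 5421 dimmer tested genes 2251 were below 0. All tested genes showed no such turn: the median difference was 0.17 for the 7471 brighter and 0.14 for the 5421 dimmer genes. These 5 were each measured on fewer than 8 arrays, and the split was made on the same values, so the counts are a description.

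On each array, the median shift of the 21 mitotic members from their own means was between -0.078 and 0.26 in GFP-high and between -0.15 and 0.020 in GFP-low, so the groups overlapped. That of the 12 replication members was between -0.23 and 0.29 in GFP-high and between -0.25 and 0.16 in GFP-low, overlapping as well. All tested genes had shifts from -0.054 to 0.24 and from -0.19 to 0.047.

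**Figure D4:**
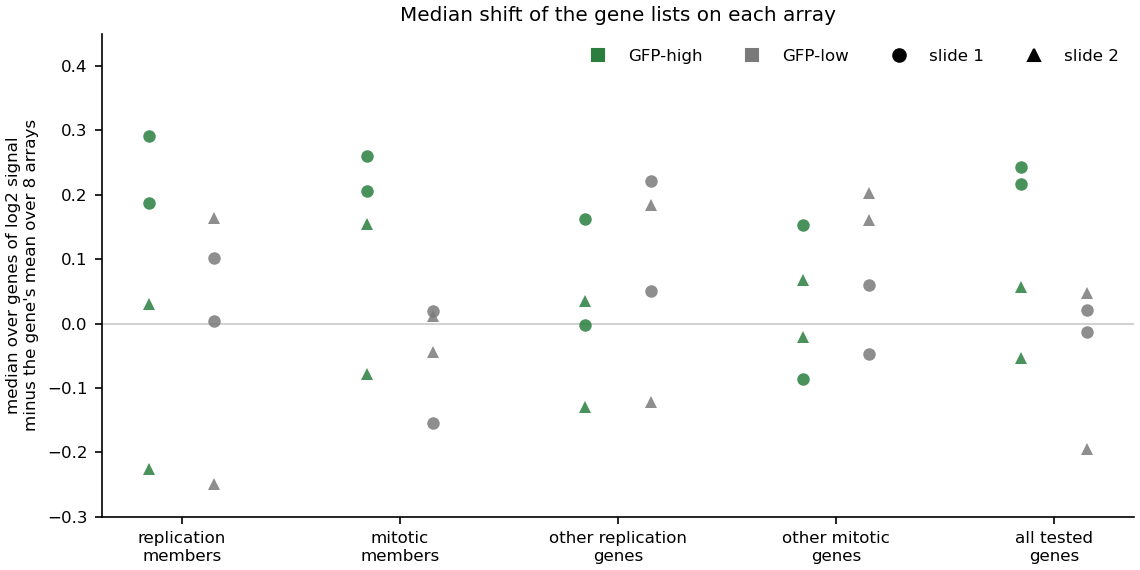
Median over each gene list of the log2 signal minus the gene's own mean over 8 arrays, 1 point an array (green GFP-high, grey GFP-low; circles slide 1, triangles slide 2). The arrays of the groups overlap for every list, with the mitotic members from -0.078 to 0.26 in GFP-high against -0.15 to 0.020 in GFP-low.

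A longer list of other genes of both processes, drawn up with earlier results of these data known, was read in the same way. Of 55 other replication genes 53 were tested; Clspn and Hells were not. Their median difference was -0.10, with 24 above 0 and 29 below, and 1 was called lower and 0 higher. At an unadjusted p under 0.05, 6 were lower and 3 higher, against 6.37% and 7.94% of all tested genes. The called gene was Ccne2, cyclin E2, which drives entry into S phase with Cdk2. It was at -2.53, -4.57, -2.73 and -3.50 in GFP-high and 0.60, 0.16, 0.92 and 0.99 in GFP-low. All GFP-low arrays were above background and 1 of the GFP-high arrays was. The gene thus entered the test through GFP-low, and the size of the gap rests on GFP-high signals near the floor. The fitted difference was -4.00 ± 0.46 (SE), with a limma adjusted p of 0.0447. The direction held without each array in turn, but in 7 of those 8 fits the adjusted p was above 0.05. It ran up to 0.137 without GFP-low replicate 4, and the lowest was 0.0305 without GFP-high replicate 2. Nor was Ccne2 called with the replicate number as a block, though those numbers are not shown to pair the samples. With normexp background correction the difference was -1.79.

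Other replication genes pointed both ways without passing the test. On the higher side, Cdk2, the partner of cyclin E, differed by 1.04 ± 0.34 (SE), Mcm10, a helicase activator, by 0.66 ± 0.25 (SE), and Recql4, a firing factor, by 0.94 ± 0.36 (SE). The arrays of these 3 genes did not overlap, and their limma adjusted p-values were 0.257, 0.307 and 0.312. On the lower side, Pola1, the catalytic subunit of polymerase alpha, differed by -3.09 ± 0.78 (SE), with a limma adjusted p of 0.186. Its arrays did not overlap, with 2 arrays of GFP-high and all 4 of GFP-low above background.

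Of 69 other mitotic genes 59 were tested, and none was called. The checkpoint kinase Ttk, separase (Espl1), Kif15, Kif18a, Hmmr, Aspm, Casc5, Cenpq, Sgol2 and Depdc1a were left out. At an unadjusted p under 0.05, 3 of the 59 were higher and 5 lower, against 7.94% and 6.37% of all tested genes. The median difference of the 59 was -0.11, with 25 above 0 and 34 below. The smallest p-values on the higher side were those of Kif18b, a plus-end depolymerising kinesin, at 1.06 ± 0.30 (SE), Cenpt, a kinetochore anchor, at 1.31 ± 0.47 (SE), and Ncapd2, a condensin subunit, at 0.73 ± 0.32 (SE). On the lower side they were those of Cenpp, a centromere protein, at -1.44 ± 0.47 (SE), Fbxo5, the inhibitor of the anaphase-promoting complex, at -2.57 ± 0.91 (SE), and Ect2, an exchange factor of cytokinesis, at -2.32 ± 0.84 (SE). The arrays of Cenpt, Fbxo5 and Ect2 overlapped between groups, and those of Kif18b, Ncapd2 and Cenpp did not. Fbxo5 was above background on 3 arrays of GFP-high and 4 of GFP-low, with GFP-high replicate 1 at -5.36, near the floor.

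The faint probes of these lists lay mostly below 0. Of the 23 other mitotic genes with a mean level under 0, 20 were below 0, with a median of -1.10, and of the 36 brighter ones 14 were below 0, with a median of 0.16. Of the 14 faint other replication genes 11 were below 0 (median -0.78), and of the 39 brighter ones 18 (median 0.01). Among all tested genes, 2251 of the 5421 faint and 2633 of the 7471 brighter ones were below 0. A gene could enter with a signal above background on the arrays of a single group, and this bears on these counts: 17 of the 23 and 9 of the 14 were above background on more GFP-low than GFP-high arrays, against 32.3% of the 5421 faint tested genes. Of those measured on all 8 arrays, 3 of 4 faint other mitotic genes and 1 of 3 faint other replication genes were below 0, and no faint member was measured on all 8. Background treatment moved the sizes: with normexp the medians were -0.26 and -0.15, and with a common floor -0.54 and -0.38. The share of spots well above background ran from 36.3% to 48.8% in GFP-high and from 40.5% to 50.7% in GFP-low, and its part in these values was not tested.

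**Figure D5:**
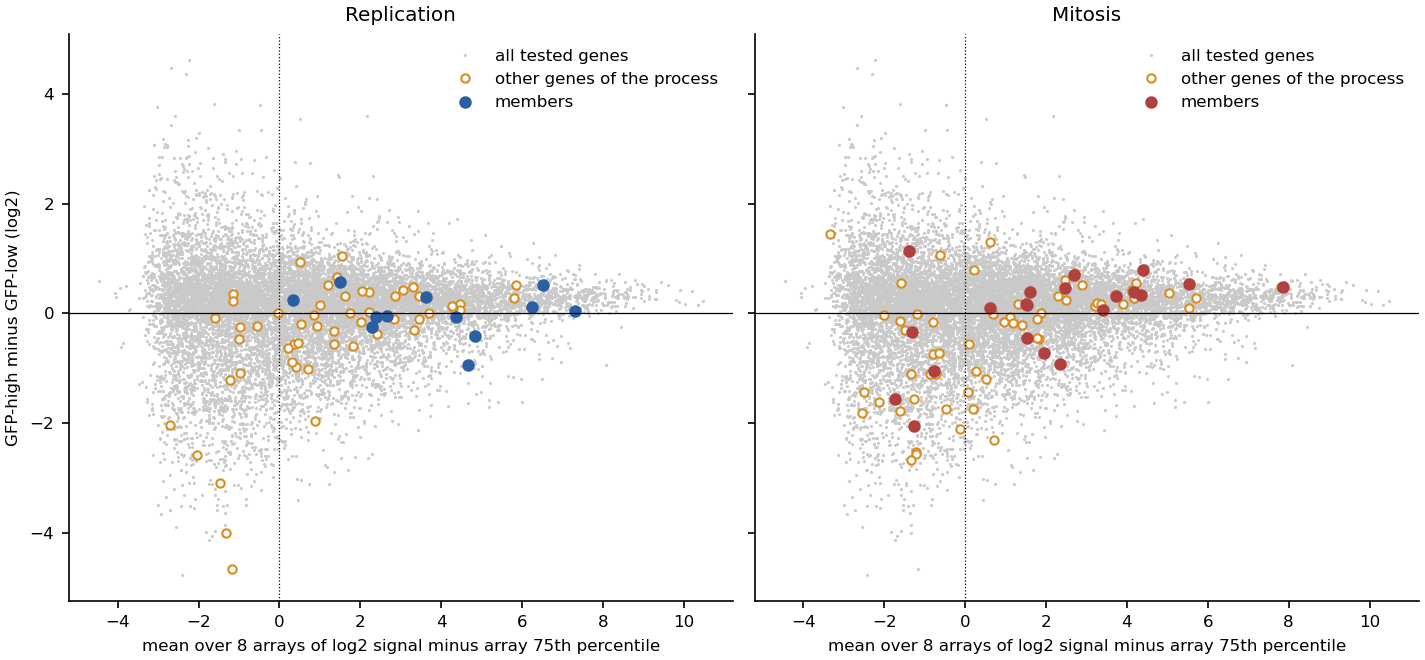
Difference between the groups (log2) against mean level over 8 arrays (log2 signal minus array 75th percentile) for all 12892 tested genes (grey), the members (filled) and other genes of the process (open), replication left and mitosis right. Right of the dotted line the listed genes lie on both sides of 0. There, 13 of 16 mitotic members lie above 0, as do 64.8% of the 7471 brighter tested genes. Left of the line most listed genes lie below 0, as 20 of 23 other mitotic and 11 of 14 other replication genes do. Of all 5421 faint tested genes, 2251 do.

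Markers of other cells that a heart digest can hold were compared beside these values. Summed on the linear scale of the scaled signal, the 8 endothelial markers (4 tested) ranged from 1.53 to 5.05 in GFP-high and 1.99 to 5.47 in GFP-low. The 8 erythroid markers (6 tested) ranged from 20.3 to 159 and from 10.7 to 144. The 8 cushion mesenchyme markers (3 tested) ranged from 1.39 to 3.72 and from 1.81 to 9.73, and the 6 epicardial markers (4 tested) from 7.86 to 9.27 and from 5.29 to 8.24. The 6 neural markers (1 tested) ranged from 0.56 to 2.19 and from 1.05 to 3.44. The 6 leukocyte markers (2 tested) were the list whose sums did not overlap, 10.9 to 15.3 against 3.58 to 5.99. Most of each sum came from Lyz2, the lysozyme of macrophages and granulocytes. Lyz2 was at 3.68, 3.81, 3.35 and 3.40 in GFP-high and 2.07, 2.27, 2.32 and 1.75 in GFP-low, with no overlap. It differed by 1.46 ± 0.24 (SE), with a limma adjusted p of 0.0949. The macrophage marker Cd68 overlapped between groups (0.94 ± 0.68, SE), and Ptprc, Csf1r and Cd52 were above background on no array. Tyrobp was above background on 1 GFP-low array only and was not tested, and its group means differed by -1.04. None of the marker genes was called, and their part in the members' values was not tested.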

How the data were processed

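RNA of 8 sorted samples was hybridised to 1-colour Agilent mouse arrays. Per the labels' protocols, 5 ng of total RNA was amplified and 2 µg of product labelled. The deposited values are spot intensities: the authors read them with Agilent Feature Extraction 10.5.1.1 (submitters' processing notes), which per the file headers subtracted background and replaced the lowest signals by surrogates. Outlier and control spots were left out. From the processed signals, log2 values were taken here and the 75th percentile of the array subtracted, and names were updated through RefSeq (GRCm38.p6). The brightest probe stood for a gene, which was tested if 4 or more of its 8 arrays were flagged well above background. The groups were compared with limma 3.58.1 (lmFit, eBayes) in R 4.3.3, and genes called at an adjusted p under 0.05; the fit was tested on simulated data. The number of arrays limits the precision. The members and lists were chosen with earlier results of these data known. All 34 members are named, and of the longer lists every called gene and the 3 smallest p-values per direction, except genes not reported here. Alternatives tried were other background corrections, scalings, filters, probe summaries, blocks and left-out arrays.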

Additional observations from a re-analysis of the deposited data

Results flagged for a closer look

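In 7 of 66 groups of 4 arrays checked over the tested members, 1 array stood apart from the others by Dixon's test at the 95% level; chance marks about 1 group in 20. Levels are log2 signal minus the array's 75th percentile. GFP-low replicate 3 was the lowest for Mcm7 (5.44, the next at 6.46) and for Aurka (4.86, the next at 5.36). GFP-high replicate 1 was the lowest for Cdc6 (0.030, the next at 0.55). For Ccnb2, GFP-high replicate 3 was the highest (2.03, the next at 1.52) and GFP-low replicate 2 the lowest (1.01, the next at 1.56). GFP-low replicate 4 was the highest for Plk1 (2.81, the next at 2.08), and GFP-low replicate 1 the lowest for Kif11 (-3.19, the next at -0.65). Without the array that stood apart, the difference between groups was 0.23 for Mcm7 (0.51 with it), 0.39 for Aurka (0.53), 0.38 for Cdc6 (0.23), 0.65 for Plk1 (0.46) and -1.02 for Kif11 (-0.34). For Ccnb2 it was 0.0048 without GFP-high replicate 3 and 0.0023 without GFP-low replicate 2 (0.15 with both). The cause was not tested.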

How the results depend on the processing

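No member was called under any alternative; the lowest adjusted p of a member was 0.0784, for Ube2c with a common floor. Of 33 tested members 20 kept their sign in every alternative, among them Cdc20 (0.63 to 0.90 when each array was left out), Ube2c (0.61 to 0.76), Aurka (0.39 to 0.58), Birc5 (0.38 to 0.56), Mki67 (-2.41 to -1.42) and Mcm4 (-1.24 to -0.53). The other 13 changed sign at least once, in 38 of 721 member values in all, and the cause was not tested. Within slide 1 the values that reversed were Mcm2 0.24, Mcm5 0.037, Cdc6 -0.15, Rrm1 0.17, Tyms 0.24, Aurkb -0.51 and Kif11 0.14. Within slide 2 they were Mcm3 -0.032, Mcm6 -0.23, Pcna 0.073, Foxm1 -0.34, Bub1b -0.35 and Kif20a -0.11. With normexp they were Mcm3 -0.067, Mcm6 -0.17 and Kif20a -0.097; with quantile normalisation Mcm3 -0.084, Mcm6 -0.23 and Kif20a -0.045; with the percentile over probes measured on all arrays Mcm6 -0.046 and Kif20a -0.017; with the mean over probes Mcm3 -0.17 and Tyms 0.19. Leaving out each array in turn gave -0.15 to 0.00031 for Mcm5, -0.085 to 0.22 for Mcm6, -0.16 to 0.16 for Rrm1, -0.19 to 0.10 for Tyms, -0.10 to 0.32 for Aurkb, -0.068 to 0.43 for Bub1b and -0.10 to 0.40 for Kif20a.

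The median of the replication members was 0.24 within slide 1. That of the mitotic members was 0.33 over probes above background on all 8 arrays, where 16 were left, 0.34 within slide 1, and 0.12 to 0.30 when each array was left out, the highest without GFP-low replicate 2. Over the other alternatives both medians moved by less than the spread between arrays. Scaling moved the shift of all genes: the median difference of 0.16 was 0.10 with normexp and with quantile normalisation, and 0.27 within slide 1. Under quantile normalisation 4 of 12 replication and 13 of 21 mitotic members were above 0, against 6 and 14.

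The count of all genes called, 18, was 9 with quantile normalisation, 4 with the percentile over probes measured on all arrays, 49 with a common floor (37 higher and 12 lower), 3 without a filter on faint probes, 11 with probes above background on all 8 arrays (10 higher and 1 lower), 11 with the slide as a block (3 higher and 8 lower), 0 within each slide (1571 and 790 at an unadjusted p under 0.05), 7 with each probe fitted on its own, and 0 to 7 when each array was left out. With normexp the split was 14 higher and 6 lower, and with trend and robust variance 14 and 5. The count of other replication genes called, 1, became 0 without a filter, over probes on all 8 arrays, and within each slide, and ranged from 0 to 1 when each array was left out; the 1 call was Ccne2 without GFP-high replicate 2 and another gene without GFP-high replicate 3.

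The replicate block gave 0 calls over all genes (2383 at an unadjusted p under 0.05) and 0 among the other replication genes, with an adjusted p of 0.148 for Ccne2. The numbers are not shown to pair the samples: correlations of deviations between equal numbers ran from 0.07 to 0.30, and 7 of 8 arrays correlated best with their own number. Signal over background limits the precision: the 95% intervals of the 5 mitotic members not measured on all arrays reached 1.58 to 2.95 to each side, against 0.50 to 1.38 for the other 16. The split by mean level was added after seeing the data, as were some of the alternatives for Ccne2.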
